A study of Homo sapiens with 2 samples.

Results

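The STEAP metalloreductases and the core genes of cellular iron handling were described in a pair of Affymetrix U133 Plus 2.0 arrays. The members were 10 named genes: the reductases STEAP1, STEAP2 and STEAP3, the iron importers TFRC and SLC11A2, the ferritin chains FTH1 and FTL, the exporter SLC40A1, and the iron regulatory proteins ACO1 and IREB2. They were taken as all probe sets that the platform annotation gives to exactly 1 of these genes, which found 20 probe sets of 8 genes among 41091 such probe sets of 19775 genes. The array levels of FTH1 and IREB2 were not analysed here, and IREB2 enters only the search of promoter windows. The group was chosen by the measured difference of STEAP1 between these same arrays, so every difference between them is a description.

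Both arrays held RNA of MDA-MB-231, an established human line of triple-negative breast cancer, which lacks the hormone receptors and amplified ERBB2. 1 culture was transfected with control siRNA and 1 with siRNA against KMO, both with DharmaFECT reagent and for 48 h. KMO encodes kynurenine 3-monooxygenase of tryptophan breakdown, and the study's title links it to pluripotency genes and beta-catenin. With 1 array per condition and 1 cell line there is no replicate error, no test and no p-value, and each difference is one between these cultures only.

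Mammalian cells take up ferric iron bound to transferrin through the receptor TFRC, reduce it in the endosome with a STEAP reductase, move the ferrous iron to the cytosol through SLC11A2, store the surplus in ferritin and release it through SLC40A1, known as ferroportin. STEAP proteins pass electrons across a membrane to ferric or cupric ions. STEAP2, STEAP3 and STEAP4 carry an oxidoreductase domain that binds NADPH, which STEAP1 lacks, and STEAP1 is best known as a surface antigen of prostate and other cancers. When iron is scarce the iron regulatory proteins bind stem-loops called iron-responsive elements, which stabilises the TFRC mRNA and blocks translation of the ferritin mRNAs. Ferritin can therefore change as a protein while its mRNA does not.

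STEAP1 has a close copy, STEAP1B, elsewhere on chromosome 7, and the sequences before their start sites show how alike they are. The 250 bases before each start are given 5′ to 3′ from RefSeq (GRCh38.p14), for STEAP1 at chr7:90154219-90154468 on the plus strand and for STEAP1B at chr7:22500189-22500438 on the minus strand, with capitals at each base that differs between them.
STEAP1: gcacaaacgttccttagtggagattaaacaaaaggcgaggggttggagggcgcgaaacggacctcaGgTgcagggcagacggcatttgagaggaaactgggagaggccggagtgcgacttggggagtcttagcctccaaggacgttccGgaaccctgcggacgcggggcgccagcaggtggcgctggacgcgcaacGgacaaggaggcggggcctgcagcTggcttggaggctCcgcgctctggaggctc
STEAP1B: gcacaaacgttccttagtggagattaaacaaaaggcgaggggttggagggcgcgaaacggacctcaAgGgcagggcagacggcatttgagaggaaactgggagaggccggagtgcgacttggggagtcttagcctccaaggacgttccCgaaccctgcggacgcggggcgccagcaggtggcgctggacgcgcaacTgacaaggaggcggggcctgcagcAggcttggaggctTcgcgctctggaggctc
These stretches differed at 6 of 250 bases, an identity of 97.6%. Both hold the letters gcgcgaaa, from 201 to 194 bases before the start. These letters are the reverse complement of TTTNGCGC, a pattern of the E2F family of cell cycle factors, and no other STEAP window held it. Of all 35116 promoter windows of 300 bases, searched on both strands, 1.79% held the pattern, and STEAP1 was the only one of the 9 members with a window that did.

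The first 50 transcribed bases of FTL, the light chain of ferritin, hold the loop of its iron-responsive element, and the promoter of TFRC holds the core letters of a hypoxia response element, ACGTG. The FTL stretch lies at chr19:48965334-48965357 on the plus strand, with the loop in capitals, and that of TFRC at chr3:196082161-196082190 on the minus strand, with the core in capitals. Both are RefSeq sequences of GRCh38.p14.
FTL: tctcttgcttcaaCAGTGTttgga
TFRC: cctcgcgagcgtACGTGcctcaggaagtga
The FTL loop begins 39 bases into the transcript, and all 5 base pairs of the stem next to it can form, counting G with T as a pair. The search was for the loop CAGTGN after a C and 5 further bases, on the coding strand. It was found in 10.1% of all windows, and in 0.105% together with the 5 pairs. Of the 9 members with a window, FTL was the only one whose window held the loop. FTH1 had no window and was not searched. The elements known further into other transcripts lie outside these windows. ACGTG, on either strand, stood in the windows of TFRC and FTL among the 9 members and in 21.4% of all windows. The AP-1 pattern TGANTCA stood in that of SLC11A2 (7.71% of all windows), and the antioxidant response pattern TGACNNNGC, which overlaps it in its first letters, in no member (13.3% of all).

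The arrays gave the following frame. Levels are log2 values after robust multi-array averaging (RMA), a difference is KMO siRNA minus control siRNA, and a difference of 1 is 2-fold. The 3 KMO probe sets stood between 2.11 and 2.95 in the control array and between 2.35 and 2.92 in the KMO siRNA array, inside the range of 10 genes of unrelated tissues (2.04 to 5.39 and 1.95 to 5.27), so the target does not check the labels. The description field gives shLUC and shK421 within the names of the arrays, whereas titles and protocol name siRNA. The MDA-MB-231 genes VIM, CD44, AXL and CAV1 stood between 11.31 and 12.96, and ESR1 and PGR were under 5 in both arrays, while ERBB2 stood at 7.44 and 7.37. Of 13 markers of erythroid cells, macrophages and hepatocytes, which handle much iron, 10 had a probe set and 0 reached a mean of 6. A gene was represented by its probe set with the highest mean and counted as measured at a mean of at least 6, which left 8997 genes and 6 of the members. Over the measured genes the median difference was 0.04, and the central 95% ran from -0.82 to 0.74. Probe sets of one gene with a mean of at least 6 differed by a median range of 0.15, in 3777 genes with at least 2 of them. They read the same 2 arrays, so this range holds no error between cultures or between arrays.

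STEAP1 was 3.29-fold higher in the KMO siRNA array, and it was the only member with a 2-fold difference among the 6 measured. Its single probe set stood at 6.20 in the control array and at 7.92 in the KMO siRNA array, a difference of 1.72. The control level lay just above the level minimum, and the KMO siRNA level well above it. Of all 8997 measured genes, 77 (0.856%) were higher by 2-fold or more and 125 (1.39%) lower by as much, and STEAP1 stood 8th from the highest. Among 2338 genes within 0.5 of its mean level, 27 (1.15%) were higher by 2-fold or more. Counted by probe set, 1 of the 11 member probe sets with a mean of 6 or more was 2-fold apart, against 2.06% of all 14831 such probe sets. With only 1 probe set, no other part of the transcript was measured. In RNA of a whole culture, a change in the number of expressing cells and one in the RNA per cell cannot be told apart.

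The other STEAP genes did not share this difference. STEAP3, the main ferric reductase of the transferrin endosome in red cell precursors, stood at 7.63 in the control array and 7.67 in the KMO siRNA array, a difference of 0.04. Its other probe set had the same value of 5.88 in both. STEAP2, which shares the locus of STEAP1, stood at 5.73 and 6.03, a difference of 0.29 with the control level under 6. Its mean of 5.88 kept it out of the measured genes. Both levels exceeded those of the 10 unrelated-tissue genes, while the erythroid gene HBB stood at 5.75 and 5.71, level with STEAP2 in the control array.

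STEAP4, a reductase of fat and inflamed tissue, and STEAP1B had no level above the range of unrelated tissues. The stronger of the 2 STEAP4 probe sets went from 3.00 to 3.24 and the weaker from 1.84 to 2.04. STEAP1B stood at 3.19 and 3.05, a difference of -0.14. The promoter pair shown above is alike in 97.6% of the bases printed. It belongs to a gene that was higher by 1.72 and to a gene whose only probe set read near the array background. Whether the STEAP1 probe set also reads STEAP1B transcripts was not tested.

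Around STEAP1 on chromosome 7, the 3 genes on each side in the RefSeq table were looked up, and 3 of these 6 had a probe set. Apart from STEAP2 next to it, these were the transcribed pseudogene DPY19L2P4, at 2.24 in both arrays, and CFAP69, a protein of the sperm tail, at 5.03 in both. Both values were identical between the arrays to the last deposited digit, as were 5171 of 54675 probe sets (9.46%) and 2 of the 20 of the members. None of these 3 neighbours had a mean of at least 6.

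The measured genes whose pair of levels lay nearest to that of STEAP1 were SPC24, a kinetochore subunit, CDC25A, the phosphatase that frees CDK2 and CDK1 from inhibition, and CTHRC1, a secreted matrix protein. SPC24 stood at 6.27 and 7.84 and lay 0.10 from STEAP1, as the Euclidean distance of both levels. CDC25A stood at 6.23 and 7.79, at a distance of 0.13. CTHRC1 stood at 6.33 and 7.71, at a distance of 0.25. The likeness covers 2 arrays only, so it says that these levels are close and nothing more.

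**Figure D1:**
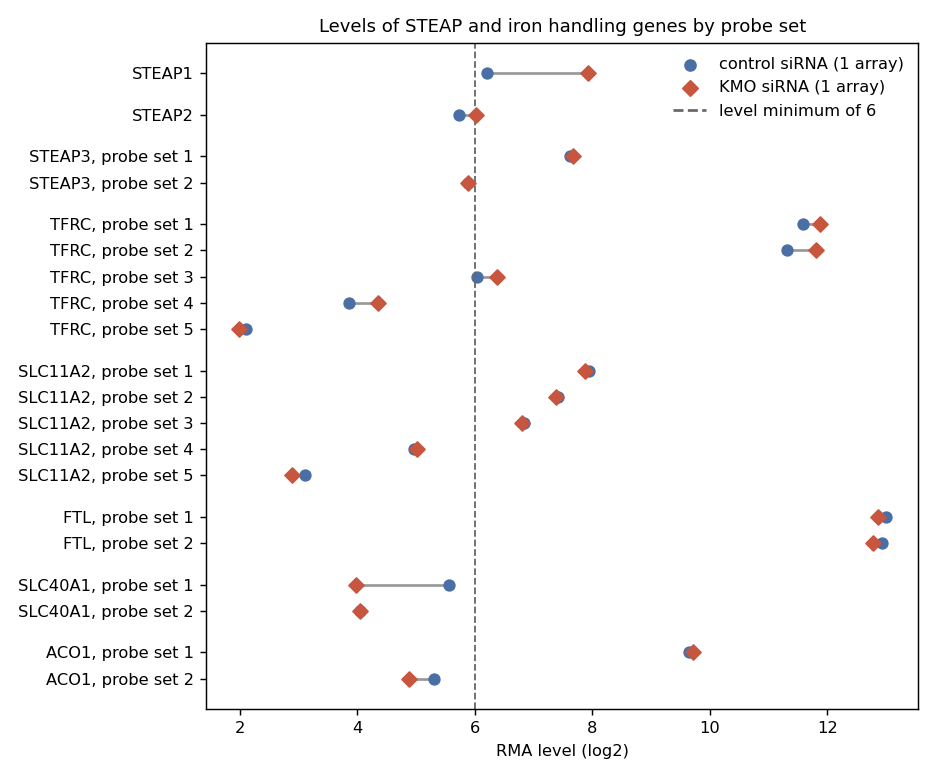
RMA level on the log2 scale (horizontal axis) of each of the 20 probe sets of the 8 genes, ordered by gene, in the control siRNA array (circles) and the KMO siRNA array (diamonds), 1 array each; the dashed line is the level minimum of 6. STEAP1 moves from 6.20 to 7.92 and the first SLC40A1 probe set from 5.57 to 3.98, while most other pairs nearly coincide.

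TFRC, the transferrin receptor and the main door for iron, was slightly higher in the KMO siRNA array with every probe set that had a mean of at least 6. The strongest stood at 11.60 in the control array and 11.89 in the KMO siRNA array, a difference of 0.29 or 1.22-fold. The second stood at 11.32 and 11.81, a difference of 0.49 or 1.41-fold. The third stood at 6.04 and 6.37, a difference of 0.33. These 3 values span 0.20, somewhat more than the median range of 0.15 between probe sets of a gene. The difference of 0.29 lay at percentile 78.9 of the measured genes and that of 0.49 at percentile 91.9, both inside the central 95% of -0.82 to 0.74. Among the weak TFRC probe sets, one differed by 0.49 (3.87 and 4.35) and the other by -0.13 (2.11 and 1.98).

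SLC11A2, the ferrous iron transporter DMT1 that empties the endosome, was nearly level between the arrays. Its strongest probe set stood at 7.94 and 7.88, and the 3 with a mean of at least 6 differed by -0.06 to -0.02. The remaining pair, with means under 6, differed by 0.04 and -0.22. The range of 0.04 over the 3 stronger probe sets lies under the median range of 0.15.

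FTL was a little lower. One probe set went from 13.00 under control siRNA to 12.86 under KMO siRNA and the other from 12.94 to 12.78, differences of -0.14 and -0.16, or 1.10- and 1.11-fold lower. They lay at percentiles 28.1 and 26.3 of the measured genes, well inside the bulk. Both are of the kind whose probes can bind other transcripts, and ferritin has many processed pseudogenes, so the values may hold more than FTL. A probe set annotated to FTH1P5, a pseudogene of the heavy chain named here after its values were seen, stood at 12.41 and 12.27, a difference of -0.14. The difference of TFRC exceeded that of FTL by 0.43. Both lay inside the central 95% of all measured genes, -0.82 to 0.74. Whether such a gap is unusual for a pair of genes was not tested.

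SLC40A1, the only known exporter of iron from cells, was lower in the KMO siRNA array with its stronger probe set, at levels under the minimum of 6. It stood at 5.57 in the control array and at 3.98 in the KMO siRNA array, a difference of -1.59. The control level lay above those of the 10 unrelated-tissue genes, of which the highest stood at 5.39, but under that of the erythroid gene HBB at 5.75, so it was not clear of the array background. The KMO siRNA level lay within the range of unrelated tissues. The other probe set stood at 4.04 in both arrays. Of the 10778 genes under the level minimum, 89 (0.826%) were at least 2-fold lower, and of 2424 genes within 0.5 of the mean level of SLC40A1, 29 (1.20%) were. With both levels taken as 6 no difference remains, and no fold is given.

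ACO1, the cytosolic aconitase that turns into an iron regulatory protein when it loses its iron-sulfur cluster, stood at 9.65 and 9.72, a difference of 0.07. Its weak probe set went the other way, at 5.31 and 4.89, a difference of -0.43. With the mean of both probe sets ACO1 differed by -0.18, so its direction was not settled.

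Of the 6 measured members, 4 were higher and 2 lower in the KMO siRNA array, with a median of 0.06 beside 0.04 over all measured genes, of which 54.8% were higher. STEAP1 apart, the 10 stronger probe sets of the members differed by between -0.16 and 0.49. None of these reached 1.5-fold. Counted by gene, 1 of the 6 measured members, STEAP1, did, beside 10.6% of all measured genes. The group was chosen by the difference of STEAP1, so this 1 was fixed in advance and the count cannot be read against that share.

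**Figure D2:**
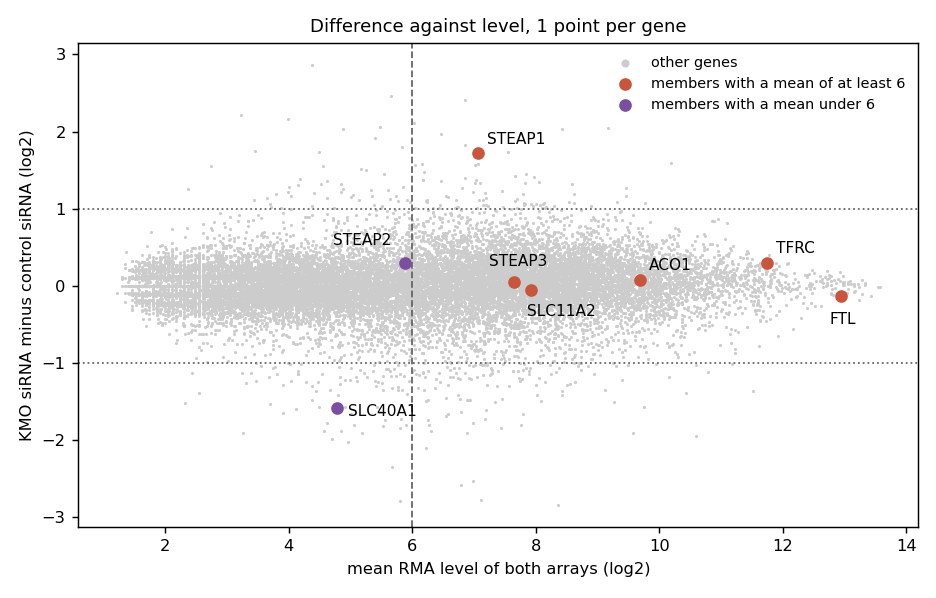
Difference between the arrays (vertical axis, log2, KMO siRNA minus control siRNA) against the mean level of both arrays (horizontal axis, log2), 1 point per gene for the 19775 genes; dotted lines mark 2-fold and the dashed line the level minimum of 6. STEAP1 at 1.72 lies outside the band of most genes and 6 other members lie within it; SLC40A1 is drawn at its deposited difference of -1.59, with both levels under 6.

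The wider pathways were read from lists of iron, haem and copper genes, beside the shares of all measured genes that were at least 1.5-fold higher (5.19%) or lower (5.41%). Of 108 listed genes 76 were measured; 46 were higher and 29 lower, with a median of 0.07. STEAP1 was the only one with a 2-fold difference, and at 1.5-fold there were 4 on the higher side and 1 on the lower. The lower one, ABCB6, was 1.34-fold lower with its weaker array counted as 6, and then no listed gene was lower by 1.5-fold.

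Among the STEAP genes and other ferric reductases, 5 of 7 measured genes were higher, with a median of 0.04. After STEAP1 came CYB561A3, a reductase of the lysosome, at 7.14 and 7.47, a difference of 0.33. CYBRD1, the duodenal ferric reductase, differed by -0.18, and by -0.05 with its other probe set of at least 6.

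Of 8 measured uptake genes, 3 were higher and 5 lower, and the median was -0.01. LCN2, a lipocalin that binds iron-carrying siderophores, stood at 7.64 and 8.29 and was 1.56-fold higher, the only uptake gene past 1.5-fold. TFRC followed at 0.29 and SLC39A8, a metal importer of the ZIP family, at 0.19. The difference of SLC39A8 was 0.22 with its other probe set of at least 6.

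Storage genes were nearly level, with a median of 0.01 over 5 measured genes. HERC2, a ubiquitin ligase for the ferritin cargo receptor NCOA4, differed by 0.23, and PCBP1, a chaperone that loads iron into ferritin, by 0.15. FTL at -0.14 was the lowest of the list. Only 2 of 10 genes of iron export and its hormone were measured. APP, the amyloid precursor protein that binds ferroportin, stood at 11.11 and 10.60, a difference of -0.51, and its 3 probe sets ran from -0.51 to -0.10. NEO1, a co-receptor of the hepcidin pathway, differed by 0.07, and by -0.09 with its other probe set of at least 6, so its direction was not settled.

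The iron regulatory proteins and their ligase gave values in both directions. FBXL5, the iron-sensing subunit that marks the regulatory proteins for breakdown, stood at 9.39 and 8.97, a difference of -0.43, and of -0.55 with its other probe set. CUL1, the scaffold of that ligase, differed by 0.37, and by 0.19 with its other probe set. The median of the 4 measured genes was 0.02. Of the other mRNAs with an iron-responsive element, 2 were measured, with EPAS1, the hypoxia factor HIF-2 alpha, at -0.17 and the kinase CDC42BPA at -0.05. EPAS1 differed by -0.08 with its other probe set of at least 6. The other CDC42BPA probe set of at least 6 gave -0.61, so the size of its difference was not settled.

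Haem genes showed no common direction, with 6 of 15 measured genes higher, 8 lower and a median of -0.01. The remaining one, HMOX1, the haem oxygenase induced by stress, stood at 6.61 in both arrays and is named after its values were seen. ABCB6, a transporter of porphyrins, stood at 6.42 and 5.83 and was at least 1.34-fold lower, counting the weaker array as 6. ALAD, the second enzyme of haem synthesis, stood at 7.90 and 7.37, a difference of -0.53. ABCG2, an exporter of drugs and porphyrins, stood at 6.51 and 5.98, at least 1.43-fold lower on the same count.

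Iron-sulfur cluster assembly had 15 of 20 measured genes higher, with a median of 0.17, while 54.8% of all measured genes were higher. BOLA3, a late-acting factor of mitochondrial cluster delivery, stood at 9.96 and 10.68 and was 1.64-fold higher. GLRX5, the glutaredoxin that passes clusters on, stood at 9.44 and 9.98, a difference of 0.54. ISCA2, another late factor, went the other way at -0.45. Each of these 3 genes has a single probe set.

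The list of mitochondrial iron import had 4 of 5 measured genes higher, with a median of 0.21. Of all measured genes 54.8% were higher. The list also holds transporters of other kinds, so its count and median are not those of iron importers alone. ABCB10, an inner membrane transporter of the haem pathway, stood at 7.53 and 8.23 and was 1.62-fold higher. SLC25A37, the iron importer mitoferrin-1, went the other way. It stood at 10.16 and 9.68, a difference of -0.48, and its 7 probe sets of at least 6 ran from -0.80 to -0.35. SFXN1, a serine transporter of the sideroflexin family, differed by 0.26, but by -0.09 with its other probe set of at least 6.

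Copper handling had 7 of 8 measured genes higher, with a median of 0.28, while 54.8% of all measured genes were higher. SLC31A1, the main copper importer, stood at 7.72 and 8.17, a difference of 0.46, which was 0.06 with its other probe set of at least 6. SLC31A2, its relative of internal membranes, stood at 7.99 and 8.44, a difference of 0.45. MTF1, the metal-responsive transcription factor, differed by -0.32, and its 3 probe sets ran from -0.36 to 0.13. None of the measured copper genes reached 1.5-fold. The median of this list was 0.16 at a level minimum of 5 and 0.04 with none.

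**Figure D3:**
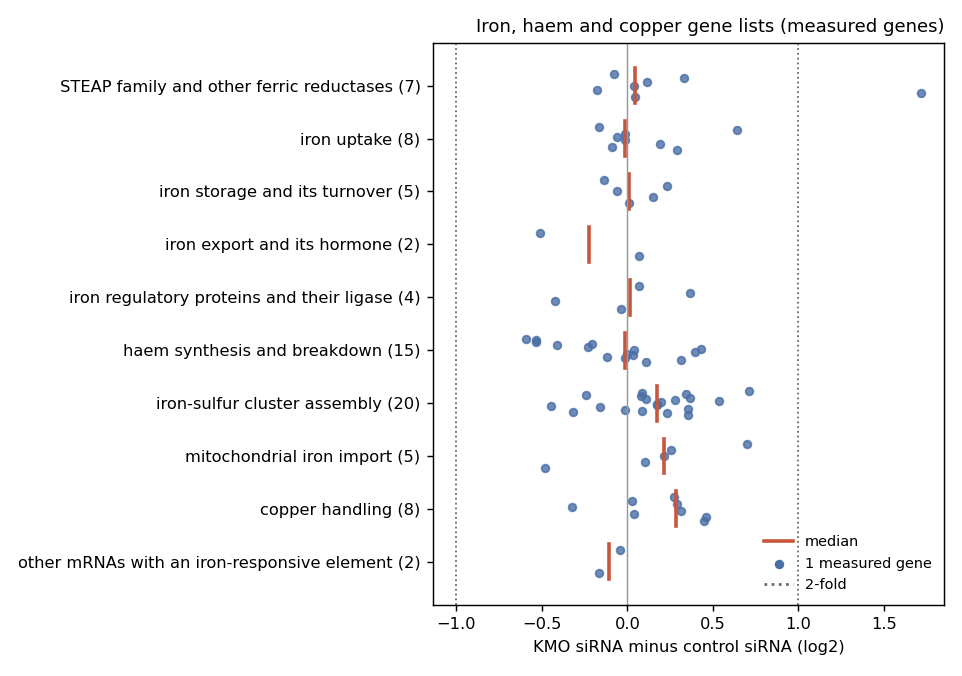
Difference between the arrays (horizontal axis, log2, KMO siRNA minus control siRNA) of each measured gene, by gene list (vertical axis, number of measured genes in brackets); points are genes, bars are list medians and dotted lines mark 2-fold. STEAP1 at 1.72 is the only point past 2-fold, and the list medians run from -0.22 to 0.28.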

How the data were processed

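The authors deposited log2 levels for 54675 probe sets of each array, made by robust multi-array averaging per the series' design text, with Affymetrix Expression Console per the submitters' processing notes. The method corrects background, quantile normalizes arrays and summarises probes, so a shift shared by all transcripts cannot be seen and weak differences are compressed. The sources used here give neither the software version nor which arrays entered the normalization. Depth does not apply to arrays, and having 1 array per group sets the precision.

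The platform annotation named a probe set where it gives exactly 1 gene, with symbols updated by gene identifier from RefSeq (GRCh38.p14): 41037 of 41091 matched. Differences were taken with pandas 2.3.3 in Python 3.11.15, with no test, and the calculation was checked on simulated data. All 8 members with a probe set were named, with STEAP1B and STEAP4, up to 3 measured genes per list with the largest absolute difference, the 3 genes on each side of STEAP1 and the 3 nearest in level. Promoter windows hold 250 bases before and 50 after a start. Of the 10 members 9 matched, all but FTH1. The members and gene lists were chosen with earlier results of these data known. The alternatives were another level minimum, the mean of all probe sets, probe sets without the _x_at and _s_at kinds, a floor of 6, centring, symbols not updated and a threshold of 1.5-fold.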

Additional observations from a re-analysis of the deposited data

How the results depend on the processing

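The single 2-fold higher member, STEAP1, kept that call under every alternative run, but most of them could not change it. It has 1 probe set, of neither dropped kind, with both levels above 6 and a mean of 7.06. Only centring altered its difference, which was then 1.68 and 1.72 otherwise. With no level minimum 1 member, SLC40A1, was at least 2-fold lower in place of 0, and 2 member probe sets in place of 1 were at least 2-fold apart. The members' median of 0.06 was 1.00 without _x_at and _s_at probe sets, since only STEAP1 and TFRC were then left, and -0.02 when a gene's probe sets were averaged. Without _x_at and _s_at probe sets the list medians were 0.29 for uptake, 0.30 for storage and -0.089 for mitochondrial import. With all probe sets of a gene averaged they were 0.15 for storage, -0.34 for export, -0.077 for the iron regulatory proteins and 0.11 for mitochondrial import. With no level minimum the median was 0.063 for export and 0.038 for copper handling, which was 0.16 at a minimum of 5. Centring moved all differences by 0.04 and turned the medians of storage and of the regulatory proteins to -0.028 and -0.024, so the signs of these lists and of uptake, export and mitochondrial import were not settled. A value was taken as moved where it shifted by over 0.092, the median SD between probe sets of a gene. The causes were not tested beyond the loss of genes named above. No paired analysis was possible because each group has 1 array. Signal near background limits STEAP2, SLC40A1, STEAP4 and STEAP1B.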
